A study of Mus musculus with 6 samples.

Results

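Ribosomal RNA sequence in the transcriptome of fully grown mouse oocytes was followed through 7 listed gene models: CT010467.1, Gm42418, Gm26917, AY036118, Gm15564, Gm23935 and Lars2. They were chosen by symbol, as models of the nuclear ribosomal RNA repeat or as loci that hold sequence like ribosomal RNA. Of the 7, 4 have a row among the 55291 gene symbols of the deposited table, namely CT010467.1, Gm15564, Gm23935 and Lars2. Gm42418, Gm26917 and AY036118 have no row in the table used here and were not analysed here beyond their position and sequence. The list was drawn up with values of this table known, so the levels of the 4 genes and their differences between genotypes are given as a description.

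The study compared oocytes in which Nat10 was conditionally knocked out with Gdf9-cre (Nat10 cKO) with wild-type (WT) oocytes, and by its title the study asks about control of translation as oocytes mature. Each genotype had 3 libraries, and each library was made from a pool of 10 oocytes of mature females given PMSG, a gonadotropin that stimulates follicle growth. Oocytes were collected up to 48 h after PMSG, from 32 h in one label and from 36 h in another. The pools carried 0.2 µl of a 1000-fold dilution of ERCC spike-in RNA. Gdf9-cre acts in oocytes and leaves Nat10 intact in the somatic cells of the follicle. Strain, exact age, whether WT females carried floxed alleles or the cre, and whether the pools of a genotype came from separate females were not stated in the labels used here. The p-values below therefore measure the spread between these libraries only.

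Nuclear ribosomal RNA is transcribed by RNA polymerase I from tandem repeats as 1 precursor that is cut into 18S, 5.8S and 28S RNA. NAT10 is an RNA cytidine acetyltransferase, and in yeast and human cells the enzyme acetylates 18S RNA and is needed for its maturation. A growing oocyte makes and stores ribosomes for the early embryo. Mature ribosomal RNA normally has no poly(A) tail, and the libraries were made by Smart-seq2, which primes reverse transcription with oligo-dT. LARS2 is the leucyl-tRNA synthetase of mitochondria, and its messenger RNA carries a stretch like 28S RNA after the coding sequence. How ribosomal RNA reads entered these libraries was not tested.

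CT010467.1 (chromosome 17, 39846353 to 39848827, minus strand, GENCODE M21 on GRCm38, the assembly also called mm10) is annotated as a ribosomal RNA gene with 2466 exon bases. RefSeq places the pseudogene Rn18s-rs5, an 18S-related sequence of 1849 bases, on the same stretch. The first 90 bases of the locus are printed on both strands because the annotated direction of the gene model is opposite to that of 18S RNA. Read on the plus strand, they open with the letters that begin 18S RNA in textbook sequence.
Plus strand, chr17:39846353-39846442: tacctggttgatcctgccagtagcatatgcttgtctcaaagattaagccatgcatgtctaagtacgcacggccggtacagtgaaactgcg
Minus strand, the annotated direction of CT010467.1, chr17:39846353-39846442: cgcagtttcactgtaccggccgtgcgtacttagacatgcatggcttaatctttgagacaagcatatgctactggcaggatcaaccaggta

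Exons of the other models lie on the same bases. Gm42418 (chromosome 17, 39846958 to 39848788, plus strand, lincRNA) covers 1822 of the exon bases of CT010467.1 on the opposite strand. AY036118 (chromosome 17, 39847113 to 39848035, minus strand, lincRNA) lies wholly within CT010467.1 in GENCODE M21 and covers 923 of its exon bases on the same strand. RefSeq gives AY036118 another place, 39848112 to 39898385, which begins within CT010467.1 and runs beyond it. In GENCODE M21 the remaining 644 exon bases of CT010467.1 are shared with no other gene. Gm26917 (chromosome 17, 39843013 to 39846341, plus strand, lincRNA) ends just before CT010467.1 and shares no exon base with it. The window where Gm42418 begins is shown on the plus strand to mark the edge of the overlap, with the bases shared by both models in capitals.
Start of Gm42418, plus strand, chr17:39846928-39846987: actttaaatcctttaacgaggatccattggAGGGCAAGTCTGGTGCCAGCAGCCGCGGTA

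**Figure D1:**
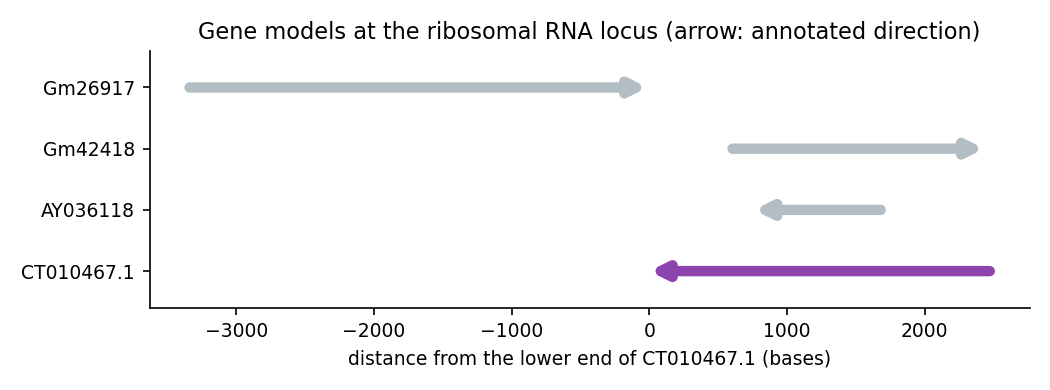
Gene models at the ribosomal RNA locus of chromosome 17, drawn to scale against the distance in bases from the lower end of CT010467.1, with arrows for the annotated direction. CT010467.1, in purple, has a row in the table used here, and the 3 grey models have none. In the GENCODE M21 positions drawn, AY036118 lies within CT010467.1, Gm42418 overlaps CT010467.1 on the other strand, and Gm26917 lies outside it.

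The sources used here name neither the strand setting of the counting nor the treatment of reads that align in several places. Reads of 18S RNA and of its complement therefore cannot be told apart in CT010467.1, nor can reads that another annotation would give to Gm42418 or AY036118.

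Gm23935 (chromosome 16, 11144125 to 11144181, plus strand) is a model of 57 bases typed as a microRNA, which lies within the body of Zc3h7a on the opposite strand and overlaps no exon. Its sequence is 73.7% G and C. It is printed with Gm24270, an identical copy that also drew reads, and with Gm24187, whose differing base is in capitals. Counted from 1 at the 5′ end of Gm23935, the difference is G11A.
Gm23935, chr16:11144125-11144181, plus strand: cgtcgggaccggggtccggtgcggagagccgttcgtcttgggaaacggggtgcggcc
Gm24270, chr9:56223715-56223771, minus strand: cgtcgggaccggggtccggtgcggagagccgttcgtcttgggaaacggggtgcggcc
Gm24187, chr13:9834469-9834525, minus strand: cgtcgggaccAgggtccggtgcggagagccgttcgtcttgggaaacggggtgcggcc

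Gm15564 (chromosome 16, 35966752 to 35983230, minus strand) is an antisense RNA with 821 exon bases, none shared with exons of another gene, whose body overlaps Kpna1 and Parp9 on the opposite strand. Lars2 lies on the plus strand of chromosome 9, from 123366927 to 123462666. Among annotated transcripts aligned at 90% identity or more over at least 50 bases, Gm15564 and Lars2 shared an alignment of 72 bases with 98.6% identity and 1 mismatch. In Lars2 the shared stretch is 123462048 to 123462119, which begins 370 bases after the stop codon and ends 545 bases before the transcript end, in the 3′ untranslated region. In Gm15564, 71 of the 72 bases fill the exon from 35981725 to 35981795, and the remaining base is the last of the exon before it. AA474408, a gene model not listed here, also aligned to both genes over part of this stretch. The alignments held 97 bases of Lars2 at 94.8% identity and 53 bases of Gm15564 at 98.1%. AA474408 had 10, 4 and 2 reads in Nat10 cKO replicates 1, 2 and 3 and 8, 2 and 4 reads in WT replicates 1, 2 and 3. A window of 30 bases of Gm15564 is printed with the base that differs from Lars2 in capitals. Counted from 1 at the 5′ end of the window, the difference is T16A, with the base of Gm15564 first. The window belongs to a conserved stretch of 28S RNA by textbook sequence, and no 28S reference was aligned here.
Gm15564, chr16:35981730-35981759, minus strand: ggaacgtgagctgggTttagaccgtcgtga

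The recovered reads numbered 74.1, 47.4 and 71.0 M in Nat10 cKO replicates 1, 2 and 3 and 33.5, 34.1 and 65.5 M in WT replicates 1, 2 and 3, with 23044 to 26440 genes detected per library. Nat10, the targeted gene, had 5.72, 5.97 and 6.32 CPM (counts per 1000000 reads) in the Nat10 cKO libraries, against 42.1, 50.1 and 39.3 CPM in the WT libraries, on the TMM scale used for all CPM levels below unless stated. The summed level of 10 oocyte markers was 25623 to 30243 CPM in Nat10 cKO and 19326 to 21141 CPM in WT, before TMM scaling. Of the 10, limma called 8 higher and 1, Oosp1, lower, where 17.4% of all genes tested were called higher and 17.6% lower. On unscaled CPM, 8 granulosa cell markers summed to 103.02 to 115.7 CPM in Nat10 cKO and 102.93 to 112.6 CPM in WT. Of the 6 of these tested, Inha was called higher and Cyp19a1 and Inhba were called lower. The 6 theca, stroma and endothelium markers summed to 71.3 to 73.6 CPM in Nat10 cKO and 50.98 to 57.8 CPM in WT, a sum made up mostly of Pecam1, which averaged 58.3 CPM in Nat10 cKO and 40.7 CPM in WT on the TMM scale. In that list Tek averaged 13.1 CPM in Nat10 cKO and 13.7 CPM in WT, and Cyp17a1 was called lower. The 6 blood and immune markers summed to 40.8 to 44.0 CPM in Nat10 cKO and 49.2 to 55.9 CPM in WT. Most of this sum was C1qb, which averaged 32.1 CPM in Nat10 cKO and 43.9 CPM in WT on the TMM scale. Cd68 averaged 2.23 CPM in Nat10 cKO and 1.78 CPM in WT, and H2-Aa 7.32 and 6.71 CPM, and neither was called. No marker of these lists was at 0 in all 6 libraries, and the part of other cells in the levels below was not tested.

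CT010467.1 was the most abundant gene of every WT library and the 8th, 10th and 6th most abundant of Nat10 cKO replicates 1, 2 and 3. It held 414174, 224627 and 419891 reads in Nat10 cKO replicates 1, 2 and 3, and 413839, 384591 and 704871 reads in WT replicates 1, 2 and 3. Its scaled level was 5536, 4719 and 5806 CPM in the Nat10 cKO libraries, against 12788, 11042 and 10953 CPM in the WT libraries. The groups did not overlap, and the lowest WT library stood 1.89 times above the highest Nat10 cKO library. The means were 5354 ± 566 CPM in Nat10 cKO and 11594 ± 1035 CPM in WT (SD, n = 3 each), a difference of -1.12 on the log2(CPM + 1) scale (SE 0.094). Every pool held 10 oocytes, and for any other cell type carried along with them fewer cells and less RNA per cell cannot be told apart in bulk samples.

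Lars2 had 150.4, 94.9 and 232.1 CPM in the Nat10 cKO libraries, against 448.7, 525.2 and 452.9 CPM in the WT libraries. The Nat10 cKO libraries spread 2.45-fold from lowest to highest and the WT libraries 1.17-fold, with no overlap between them. The difference was -1.66 (SE 0.26) on the log2(CPM + 1) scale, between means of 159.1 ± 69.0 CPM in Nat10 cKO and 475.6 ± 43.0 CPM in WT (SD, n = 3 each). Counts per gene do not separate reads on the coding part of Lars2 from reads on the stretch like 28S RNA.

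Gm15564, which shares that stretch, had 21.1, 8.36 and 26.5 CPM in the Nat10 cKO libraries, against 54.4, 62.5 and 59.4 CPM in the WT libraries. All 3 Nat10 cKO libraries were below all WT libraries, and Nat10 cKO replicate 2 was lowest. The difference was -1.74 (SE 0.33) on the log2(CPM + 1) scale. Kpna1, an importin alpha gene that its body overlaps on the other strand, had 3.58, 5.29 and 3.58 CPM in Nat10 cKO and 1.11, 1.72 and 1.90 CPM in WT, so it was higher in Nat10 cKO (limma adjusted p = 0.0013). Parp9, the other overlapped gene, had overlapping groups, at 1.60 to 2.06 CPM in Nat10 cKO and 1.82 to 3.08 CPM in WT.

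Gm23935 had 4.60, 3.32 and 6.67 CPM in the Nat10 cKO libraries, against 22.0, 23.2 and 17.4 CPM in the WT libraries. Every WT library stood at least 2.62 times above every Nat10 cKO library, the widest gap of the 4 genes. The difference was -1.93 (SE 0.19) on the log2(CPM + 1) scale. These levels rest on 344, 158 and 482 reads in Nat10 cKO and on 712, 807 and 1123 reads in WT. The lowest count, 158 reads in Nat10 cKO replicate 2, has an exact Poisson 95% interval of 134 to 185 reads. This interval covers counting error only and takes each read as independent. Many rows with few reads, AA474408 among them, hold mostly even counts. Whether the reads are independent was not tested, and the interval may be too narrow. The identical copy Gm24270 was listed with 5, 11 and 7 reads in Nat10 cKO and 18, 14 and 29 reads in WT, and the copy Gm24245 with none. How reads were divided among such copies is unknown here, so the values of each copy are uncertain. Zc3h7a, the gene that surrounds Gm23935, had 2.30, 2.27 and 2.54 CPM in Nat10 cKO and 0.247, 1.32 and 1.77 CPM in WT, and was higher in Nat10 cKO (limma adjusted p = 0.026).

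**Figure D2:**
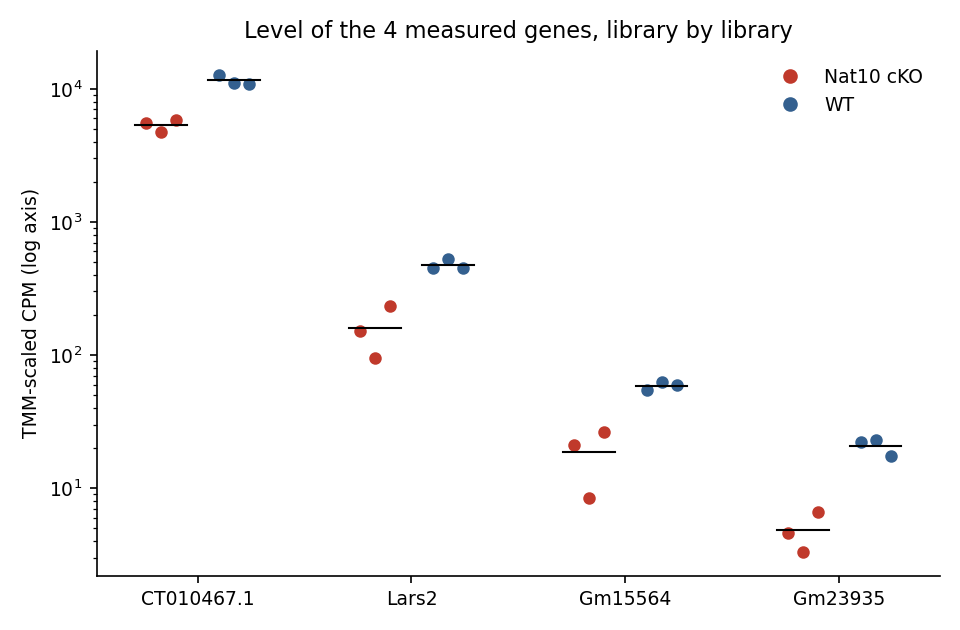
TMM-scaled level in CPM, on a log axis, of the 4 genes with a row, with 1 point per library, replicates 1 to 3 from left to right, and a line at the mean of each genotype. The Nat10 cKO points, on the left of each pair, lie below the WT points for all 4 genes, and Nat10 cKO replicate 2 is the lowest of its group for each.

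All 4 genes were thus lower in Nat10 cKO with no overlap, which 24.2% of the 18353 genes tested also were. All 4 were among the genes called lower at an adjusted p below 0.05 by limma with Benjamini-Hochberg adjustment over all tested genes, as were 17.6% of the genes tested. A further 17.4% were called higher, so 35.0% were called in either direction. Since the genes were chosen with these values known, nothing is read from their count. Ranked by the size of the fall among all genes tested, Gm23935 was 28th, Gm15564 48th, Lars2 57th and CT010467.1 253rd. On the deposited values, which keep the submitters' own scaling, the log2 difference of CT010467.1 was -0.76 with a limma adjusted p of 0.239, so its call was lost, while those of Gm15564, Gm23935 and Lars2 were -1.38, -1.59 and -1.30 and stayed called. That scaling moved the median difference of all genes to 0.24 and made 82.6% of the calls higher, against 49.7% on the TMM scale. Relative to that median, the difference of CT010467.1 was -0.997. The name that the submitters gave these values includes the word ercc. How the submitters' factors were derived, and whether they rest on the ERCC spike-in, is not known here. Levels on the TMM scale are relative to the other RNA of a library, so a difference in level per oocyte was not tested.

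The 4 rows together took up 0.577%, 0.485% and 0.618% of the reads of Nat10 cKO replicates 1, 2 and 3, against 1.29%, 1.19% and 1.13% of those of WT replicates 1, 2 and 3. Their summed level before TMM scaling was 5598 ± 684 CPM in Nat10 cKO and 12013 ± 788 CPM in WT (SD, n = 3 each), 2.15-fold lower in Nat10 cKO. The sum is a description too, since it is made of the chosen genes. CT010467.1 made up 94.8% to 97.8% of the sum in every library, so the sum follows that gene.

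The order of the libraries was compared next. Within Nat10 cKO, replicate 3 was highest, replicate 1 next and replicate 2 lowest for each of the 4 genes. Of all genes tested, 25.9% had this order, and of the genes called lower 52.9% did. Nat10 cKO replicate 2 also had the fewest reads of its genotype, and the part of depth in this order was not tested. Within WT the genes did not share an order: CT010467.1 was highest in replicate 1, while Lars2, Gm15564 and Gm23935 were highest in replicate 2. Lars2 and Gm15564 had the same WT order, with replicate 2 above replicate 3 and replicate 3 above replicate 1. Their WT libraries spread only 1.17-fold and 1.15-fold from lowest to highest. The share of all genes with this WT order was not counted, so nothing is read from the match.

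Ratios of reads within a library do not depend on how the library was scaled. Per 1000 reads of CT010467.1 there were 27.2, 20.1 and 39.97 reads of Lars2 in Nat10 cKO and 35.1, 47.6 and 41.4 in WT. These groups overlapped, and the mean log2 ratio differed by -0.55 (exact permutation p = 0.2, adjusted over 3 ratios 0.2). Per 1000 reads of CT010467.1 there were 3.81, 1.77 and 4.56 reads of Gm15564 in Nat10 cKO and 4.25, 5.66 and 5.42 in WT. These also overlapped, with a log2 difference of -0.69 (exact permutation p = 0.2, adjusted 0.2). Without Nat10 cKO replicate 2 the differences were -0.32 for Lars2 and -0.28 for Gm15564. Without Nat10 cKO replicate 3 they were -0.81 and -0.96.

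The ratio of Gm23935 to CT010467.1 was lower in every Nat10 cKO library than in every WT library. Per 1000 reads of CT010467.1 there were 0.831, 0.703 and 1.15 reads of Gm23935 in Nat10 cKO and 1.72, 2.10 and 1.59 in WT. The log2 ratio was -10.15 ± 0.36 in Nat10 cKO and -9.12 ± 0.21 in WT (SD, n = 3 each), a difference of -1.03 with an exact permutation p of 0.1, the smallest possible, and 0.2 when adjusted over the 3 ratios. None of the 3 ratios passed the threshold of 0.05, which the design cannot reach.

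Among the less abundant genes, Gm15564 and Lars2 kept the closest proportion in WT. Per 1000 reads of Lars2 there were 140.1, 88.1 and 114.03 reads of Gm15564 in Nat10 cKO and 121.2, 119.05 and 131.1 in WT, and the Nat10 cKO values ran from below to above all WT values. The SD of this log2 ratio over the WT libraries was 0.074, the smallest of the 6 pairs of genes there, and 0.33 over the Nat10 cKO libraries. In Nat10 cKO the smallest SD of the 6 pairs was 0.15, for Gm23935 over Lars2. Per 1000 reads of Lars2 there were 30.6, 34.99 and 28.7 reads of Gm23935 in Nat10 cKO and 49.03, 44.1 and 38.5 in WT, which did not overlap. The log2 ratio of Gm15564 to Gm23935 was 2.19, 1.33 and 1.99 in Nat10 cKO and 1.30, 1.43 and 1.77 in WT, with overlapping groups. The pairs without CT010467.1 are given as a description with no test.

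**Figure D3:**
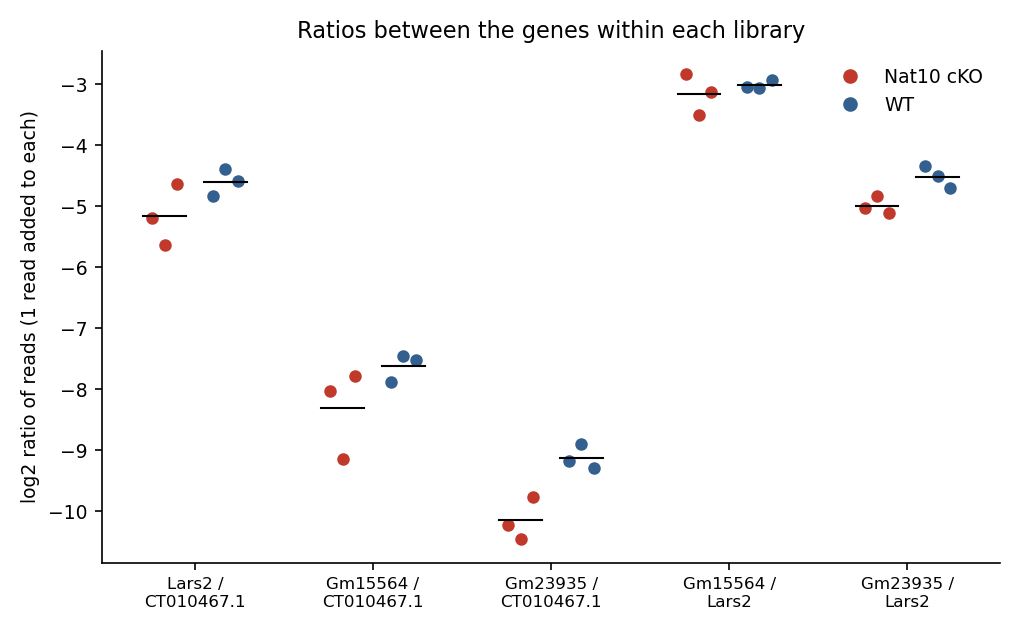
Log2 ratio of reads between pairs of genes within each library, 1 read added to each, with 1 point per library and a line at the mean of each genotype, Nat10 cKO on the left of each pair. The groups do not overlap for Gm23935 over CT010467.1 or over Lars2, and overlap for the other 3 pairs drawn. Gm15564 over Gm23935 is not drawn.

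By CPM, Gm23935 was the lowest of the 4 genes in every library, with means of 4.86 CPM in Nat10 cKO and 20.9 CPM in WT. Gm15564 averaged 18.6 CPM in Nat10 cKO and 58.8 CPM in WT. Set per length, Gm23935 instead came after CT010467.1 and before Lars2 and Gm15564, a place that rests on its short length. Per kilobase of exon, CT010467.1 averaged 2171 CPM in Nat10 cKO and 4702 CPM in WT. Gm23935 averaged 85.3 CPM per kilobase in Nat10 cKO and 366.2 in WT, from a model of only 57 bases. Whether a value per kilobase can be compared with those of longer models at so short a length was not tested. Per kilobase of its coding transcript of 3894 bases, Lars2 averaged 40.9 CPM in Nat10 cKO and 122.1 in WT. Gm15564 averaged 22.7 CPM per kilobase of exon in Nat10 cKO and 71.6 in WT. With these lengths the order was the same in both genotypes. Lars2 in Nat10 cKO, at 24.4 to 59.6 CPM per kilobase, overlapped Gm23935 there, at 58.2 to 116.9, and Gm15564, at 10.2 to 32.2, but within each Nat10 cKO library Gm23935 stood above Lars2 and Lars2 above Gm15564. In WT the 4 ranges did not overlap. The place of Lars2 depends on its length: over all 11089 of its annotated exon bases, which include models with retained introns, it averaged 14.4 CPM per kilobase in Nat10 cKO and 42.9 in WT, below Gm15564.

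The other ribosomal RNA rows outside the mitochondrial genome were nearly empty. Of 354 rows typed as ribosomal RNA, the 2 mitochondrial genes not included, 315 had no read, and after CT010467.1 the next, Gm23899, had 202 reads over all 6 libraries. Of a list of 184 further rows, which held the mitochondrial ribosomal RNAs and the 5S genes, 4 were abundant enough to test, with 0 called higher by limma and 2 called lower, both mitochondrial, where 17.4% of all genes tested were called higher and 17.6% lower. At an unadjusted p below 0.05, 1 was higher and 2 were lower, and edgeR and DESeq2 each called 0 higher and 2 lower. The list's median log2 difference was -0.20, beside 0.00096 for all genes tested, and over so few genes it was not stable. It was 0.022 on the deposited values and 0.020 over the 21 rows tested with no filter on low counts, where its sign turned, -0.056 with edgeR and -0.048 with DESeq2. With Nat10 cKO replicate 2, WT replicate 2 or WT replicate 3 left out it was -0.10, -0.30 and -0.12.

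mt-Rnr1, the small ribosomal RNA of mitochondria, averaged 261.1 ± 45.7 CPM in Nat10 cKO and 373.4 ± 52.5 CPM in WT (SD, n = 3 each), a log2 difference of -0.52 (SE 0.13, limma adjusted p = 0.0078). mt-Rnr2, the large one, averaged 969.1 ± 76.7 CPM in Nat10 cKO and 1325 ± 201 CPM in WT (SD, n = 3 each), a log2 difference of -0.44 (SE 0.11, limma adjusted p = 0.0067). Both had the Nat10 cKO order of replicates 3, 1 and 2 as well, and the gap between the groups was 1.03-fold for mt-Rnr1 and 1.09-fold for mt-Rnr2. Neither was called on the deposited values, and 1 of them was called without WT replicate 3. The 5S rows n-R5s196 and n-R5s204 averaged 0.323 and 0.190 CPM in Nat10 cKO and 0.116 and 0.150 CPM in WT and were not called.

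Genes for making ribosomal RNA did not move in 1 direction. Of 45 genes for RNA polymerase I transcription and ribosomal RNA processing, 9 were called higher and 4 lower, where 17.4% of all genes tested were called higher and 17.6% lower. The median log2 difference was 0.099. The 13 called were 28.9% of the list, against 35.0% of all genes tested, so the share called is not a result about these genes. Polr1c, a subunit shared by RNA polymerases I and III, rose by 1.01 (limma adjusted p = 3.0e-04), and Taf1c, a subunit of the polymerase I selectivity factor, rose by 1.48 (limma adjusted p = 4.1e-04). Bop1, needed to mature 28S RNA, rose by 1.06 (limma adjusted p = 5.6e-04). Dkc1, the pseudouridine synthase dyskerin, fell by 0.59 (limma adjusted p = 8.0e-04). Exons of Taf1c, Bop1 and Dkc1 overlap those of Dnaaf1, Mroh1 and Mpp1 on the opposite strand, so without strand their reads cannot be told apart. On the deposited values the 6 called of the 45 were all higher, and without WT replicate 3 the number called lower was 2.

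A list of 165 RNA genes whose products usually have no poly(A) tail held 8 that could be tested. Of these, 1 was called higher and 2 lower, and the 3 called were 37.5% of the 8, near the 35.0% called of all genes tested. The median log2 difference was -0.11, with a range from -0.21 without Nat10 cKO replicate 1 to -0.013 without Nat10 cKO replicate 2, and it turned to 0.045 on the deposited values. Malat1, a nuclear long noncoding RNA, averaged 5.89 CPM in Nat10 cKO and 3.54 CPM in WT. Snora30 averaged 0.344 CPM in Nat10 cKO and 1.19 CPM in WT. Snora47 averaged 2.05 CPM in Nat10 cKO and 4.01 CPM in WT. Both are small nucleolar RNAs of the class that guides pseudouridylation. None of the 3 was called on the deposited values, and without WT replicate 3 the number called lower was 1.

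Lars2 was lower in Nat10 cKO, and none of 16 other mitochondrial synthetases was called lower. The 16 other mitochondrial aminoacyl-tRNA synthetases, which load amino acids onto the transfer RNAs of mitochondria, had log2 differences from -0.30 to 1.17 with a median of 0.31, and limma called 7 (43.8%) higher and 0 lower, where 17.4% of all genes tested were called higher and 17.6% lower. At an unadjusted p below 0.05, 8 were higher and 1 was lower, while edgeR called 7 higher and 0 lower and DESeq2 8 higher and 0 lower. Iars2 averaged 10.4 ± 1.4 CPM in Nat10 cKO and 4.26 ± 1.77 CPM in WT (SD, n = 3 each; limma adjusted p = 0.0015), and Nars2 4.52 ± 0.73 CPM in Nat10 cKO and 1.96 ± 0.31 CPM in WT (SD, n = 3 each; limma adjusted p = 0.0012). Cars2 rose by 0.53 (limma adjusted p = 0.015) and Hars2 by 0.50 (limma adjusted p = 0.012) on the log2(CPM + 1) scale. Hars2 had few reads, at means of 0.571 CPM in Nat10 cKO and 0.102 CPM in WT. Exons of each of these 4 genes overlap exons of another gene on the opposite strand. The number called higher was 3 on the deposited values, and also 3 without Nat10 cKO replicate 2, without WT replicate 1 or without WT replicate 3. Lars, the cytoplasmic leucyl-tRNA synthetase, had a log2 difference of 0.26 (SE 0.12, limma adjusted p = 0.102).

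In WT, Lars2 had more CPM per kilobase of coding transcript than each of the 16. Its WT mean of 122.1 compared with a median of 1.96 over the 16 and with 46.3 for Fars2, the highest of them. In Nat10 cKO its mean of 40.9 lay below that of Fars2, at 51.8, with a median of 2.27 over the 16. Fars2 ranged from 50.04 to 52.8 CPM per kilobase in Nat10 cKO, inside the range of Lars2 there.

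**Figure D4:**
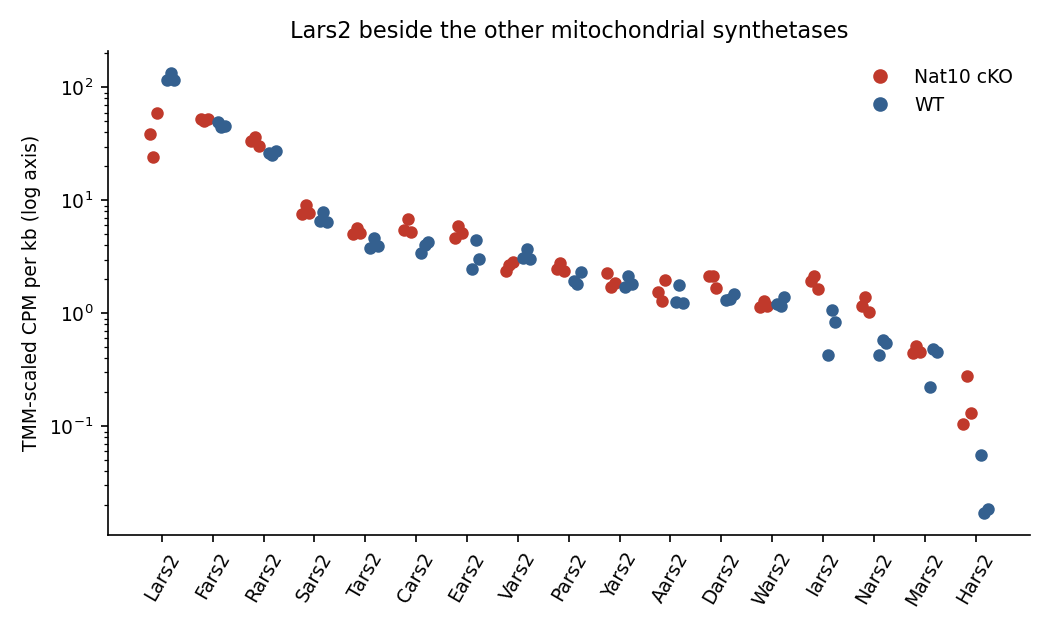
TMM-scaled CPM per kilobase of the longest coding transcript, on a log axis, for Lars2 and 16 other mitochondrial synthetases ordered by their WT mean, with 1 point per library and Nat10 cKO on the left of each pair. Lars2 lies above all others in WT, from 115 to 135, and spans Fars2 in Nat10 cKO.

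**Figure D5:**
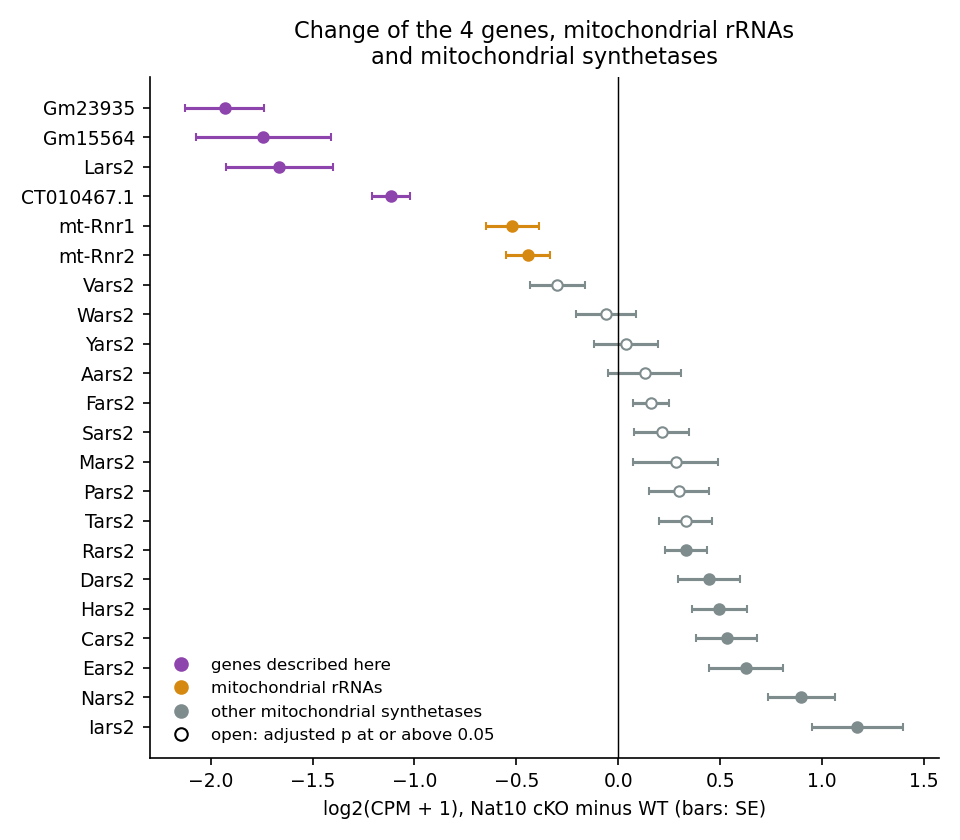
Difference in log2(CPM + 1), Nat10 cKO minus WT, with SE bars, for the 4 genes, both mitochondrial ribosomal RNAs and 16 mitochondrial synthetases; open points have an adjusted p at or above 0.05. The 4 genes lie between -1.93 and -1.12, the mitochondrial ribosomal RNAs at -0.52 and -0.44, and the synthetases between -0.30 and 1.17.

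The genes whose levels most resembled the summed 4 rows over the 6 libraries were found among 8501 other genes with a mean of at least 10 CPM, by Pearson's r of log2(CPM + 1), as a description. They were Arl13b, a small GTPase of cilia, Chn1, a Rac GTPase-activating protein, Sap30, a subunit of the Sin3 deacetylase complex, Srsf2, a splicing factor, and Snrpa1, a protein of the U2 small nuclear ribonucleoprotein. Their r lay between 0.9974 and 0.9995, and the 6 points share the split by genotype. Sap30 averaged 106.3 ± 13.7 CPM in Nat10 cKO and 263.0 ± 28.8 CPM in WT (SD, n = 3 each). Chn1 averaged 54.2 ± 2.2 CPM in Nat10 cKO and 74.8 ± 2.8 CPM in WT (SD, n = 3 each), a much smaller difference with nearly the same pattern.

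The longest run of A was read from the sequence of each model, without a comparison with transcripts in general. Whether reverse transcription was primed within these sequences was not tested. The longest run was 4 bases in CT010467.1, 4 in Gm15564, 3 in Gm23935 and 6 in Lars2, read along the longest transcript in its annotated direction. In the complement of CT010467.1, which reads in the direction of 18S RNA, it was 6 bases. The 2 mitochondrial ribosomal RNAs had longest runs of 5 and 7 bases.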

How the data were processed

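Smart-seq2 libraries of 3 Nat10 cKO and 3 WT pools were analysed. The tools were STAR 2.7.10a, featureCounts and Trim Galore 0.6.7, on mm10, per the submitters' processing notes, and no source used here names their settings. The deposited column of WT replicate 1 holds raw read counts. The other 5 deposited columns hold a scaled signal, whole reads multiplied by 1 factor per library (0.92, 0.908 and 0.932 for Nat10 cKO replicates 1, 2 and 3, and 1.38 and 0.945 for WT replicates 2 and 3). Dividing by the smallest value of a column gave whole reads for 100% of values within 0.001.

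The members and lists were chosen with earlier results of these data known. Named are the 7 genes, Nat10, the 5 genes with the highest r, up to 4 called genes a list by smallest p and genes that overlap a member. The surrounding genes, Lars, Fars2, Gm23899 and the uncalled 5S rows were named after values were seen. limma 3.58.1 (trend, robust) was run on log2(CPM + 1) of recovered reads with TMM factors after filterByExpr at a minimum count of 10, with Benjamini-Hochberg adjustment over 18353 genes and two-sided tests at 0.05. Fold changes on that scale understate those of low genes. edgeR 4.0.16 and DESeq2 1.42.0 were alternatives, and the fits were tested on simulated data. Ratios were compared by exact permutation tests (scipy) over 20 assignments. Positions come from GENCODE M21, which matched 53292 of 55291 symbols, and shared sequence from blastn 2.17.0. The annotation used for the counting is not named in the sources used here. M21 holds Gm42418, Gm26917 and AY036118, which have no row, so exon lengths and overlaps may differ from those of the models counted. Reads per library ranged from 33.5 to 74.1 M. No 2 libraries of a genotype agreed within sampling noise.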

Additional observations from a re-analysis of the deposited data

How the results depend on the processing

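All 4 genes were called lower in Nat10 cKO under every alternative run, except that the deposited values left 3, without CT010467.1. The alternatives were other size factors, library sizes only, scaling without the 4 genes, no filter on low counts, pseudocounts of 0.5 and 5, edgeR's quasi-likelihood test, DESeq2, the replicate block and each library left out in turn. The number of genes called was 1462 on the deposited values, against 6422, and ran from 4308 to 6683 with a library left out. The number of the 4 genes called lower was 4 in each leave-out.

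Log2 differences with a library left out ran from -1.18 to -1.02 for CT010467.1, -2.05 to -1.27 for Gm15564, -2.14 to -1.73 for Gm23935 and -1.98 to -1.33 for Lars2. The log2 fold of the summed level ran from -1.18 to -1.01 with a library left out and was -0.74 on the deposited values and -1.09 without Lars2. The differences in log2 ratio to CT010467.1 ran from -0.96 to -0.28 for Gm15564, -1.22 to -0.87 for Gm23935 and -0.81 to -0.32 for Lars2. The size for Gm15564 and Lars2, at -0.69 and -0.55 with all libraries, moved both ways with single Nat10 cKO libraries. Their differences in log2 ratio were -0.28 and -0.32 without Nat10 cKO replicate 2. Without Nat10 cKO replicate 3 they were -0.96 and -0.81.

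Replicate numbers were not shown to pair the libraries: same-numbered libraries had correlations of 0.079, 0.075 and -0.12 in their deviations. With the number as a replicate block 6234 genes were called. The exact sign-flip over 3 pairs gave p = 0.25, its smallest value, for each ratio. Rows with few reads, such as Snora30, Hars2, the 5S rows and the copies of Gm23935, are limited by counting error as well as by the spread between 3 libraries.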
